A study of Mus musculus with 54 samples.

Results

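Ikzf1 peaks without Fli1 are the stretches of the genome where ChIP-seq of cultured Wt fetal liver progenitors gave an Ikzf1 peak that shares no base with any Fli1 peak of the same cells. They were chosen by these measured peak calls: 1618 of the 5741 Ikzf1 peaks (28.2%) qualified, and the other 4123 (71.8%) shared at least 1 base with one of the 27261 Fli1 peaks. Of the Fli1 peaks, 4110 (15.1%) held an Ikzf1 peak and 23151 did not. Every Ikzf1 peak was 185 bases long and the longest Fli1 peaks 353 bases, so these shares of the Ikzf1 and Fli1 lists are not on the same footing. The absence of a Fli1 peak is the choosing rule and no result.

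The study mapped chromatin in mouse B-cell progenitors: open regions by ATAC-seq, bound factors and histone marks by ChIP-seq or CUT&RUN, and contacts by PLAC-seq. Cells labelled pro-B came from E2A-KO, Ebf1-KO or Wt fetal livers of the C57BL6/J background, and every culture grew on OP9 stroma in medium with interleukin-7, FLT3 ligand and KIT ligand. Ebf1-KO cells that carried a retroviral Ebf1ER construct, an Ebf1 fusion switched on by tamoxifen and delivered with the pMiG vector, were taken at 0, 6, 24 and 72 h of 4OHT. The 230-238 line, an Abelson virus-transformed B-cell progenitor line, supplied the list of accessible regions, the Ebf1-bound regions and the contacts of H3K4me3-marked anchors. Fli1 and Ikzf1 were each profiled in 1 Wt library, and each group in the region tables was 1 column, so no test across replicates was possible and all intervals below cover counting error or the spread over regions only. Library totals in the region tables ran between 24557525 and 196071042 tags; the totals behind the peak lists are not given in the sources used here.

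Ikzf1, also called Ikaros, is a zinc finger protein that binds DNA at a GGGAA core, recruits chromatin remodelling complexes such as NuRD and is needed for lymphoid development. In pre-B cells it is known for restraining proliferation and for acting on pre-B-cell receptor genes such as Igll1. Fli1 is an ETS family factor that binds a GGAA core and is active in early blood progenitors. The Ikaros core and the ETS core share letters, and a sequence such as GGGAAGT holds both.

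Promoter bases under 7 of the peaks are shown first, as examples picked because GGGAA or TTCCC is present in them. They do not stand for all peaks, since GGGAA was present in 23 of 42 peaks that lay wholly inside a promoter window. Each stretch is the part of the 185-base peak inside the printed window and can be much shorter, as in the 44 bases at Syk. They come from the RefSeq promoter table of GRCm38.p6, run 5′ to 3′ on the strand of the gene and reach at most 30 bases past the gene's start. Capitals mark GGGAA or its reverse complement TTCCC.
Phf12, chr11:77982566-77982720, + strand: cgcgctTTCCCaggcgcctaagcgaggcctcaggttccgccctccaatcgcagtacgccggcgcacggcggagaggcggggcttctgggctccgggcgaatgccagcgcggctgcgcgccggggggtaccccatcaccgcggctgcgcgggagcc
Rnf44, chr13:54693931-54693995, − strand: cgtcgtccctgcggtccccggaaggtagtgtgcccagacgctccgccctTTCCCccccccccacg
Ccm2, chr11:6546637-6546735, + strand: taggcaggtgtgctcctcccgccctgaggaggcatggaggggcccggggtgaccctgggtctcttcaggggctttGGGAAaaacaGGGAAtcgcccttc
Chd9, chr8:90828585-90828767, + strand: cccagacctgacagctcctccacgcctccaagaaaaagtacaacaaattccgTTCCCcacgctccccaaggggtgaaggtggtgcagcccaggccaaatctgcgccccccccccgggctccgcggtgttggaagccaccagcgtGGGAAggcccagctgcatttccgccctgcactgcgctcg
Rpl22, chr4:152325644-152325755, + strand: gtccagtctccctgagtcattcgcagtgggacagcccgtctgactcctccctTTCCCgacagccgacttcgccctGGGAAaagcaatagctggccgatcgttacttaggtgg
Cxcr4, chr1:128592475-128592549, − strand: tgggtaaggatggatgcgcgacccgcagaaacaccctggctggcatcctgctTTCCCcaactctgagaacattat
Syk, chr13:52596868-52596911, + strand: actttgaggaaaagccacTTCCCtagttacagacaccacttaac
In the Syk promoter the TTCCC is the reverse complement of a GGGAAGT, so the Ikaros and ETS letters coincide in a peak whose nearest Fli1 peak lay 2996 bases away.

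A pair of promoters without GGGAA under the peak is shown beside them, and the stretches at Safb and Lat, not printed, held none either. In the first, capitals mark the Ebf1 motif CCCNNGGG and the E-box CANCTG that E proteins such as E2A bind; the second has no capitals.
Igll1, chr16:16864134-16864235, − strand: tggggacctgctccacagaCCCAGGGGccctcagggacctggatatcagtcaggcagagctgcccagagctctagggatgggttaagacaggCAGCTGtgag
B3galt6, chr4:155992667-155992851, − strand: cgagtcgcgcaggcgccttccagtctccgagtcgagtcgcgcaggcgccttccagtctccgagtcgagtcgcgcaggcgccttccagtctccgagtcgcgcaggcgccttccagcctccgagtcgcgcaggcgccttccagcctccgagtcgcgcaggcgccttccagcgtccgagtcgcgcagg
The Igll1 peak, at the gene for a surrogate light chain component, held 1 Ebf1 motif and 1 E-box in these 102 bases. The B3galt6 stretch is a tandem repeat in which cgagtcgcgcag occurred 7 times within 185 bases. Among promoter windows with an Ikzf1-only peak, 4 of 249 (1.61%, 95% Wilson interval 0.626 to 4.06) held some 12 letters at least 4 times, against 4 of 1149 (0.348%, 0.136 to 0.892) of windows with a shared peak and 0.649% of all windows. These 4 windows belong to B3galt6, its divergent neighbour Sdf4 and Cdr1, and they stand for 2 peaks.

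Motifs were searched on both strands in windows of 300 bases, 250 upstream and 50 downstream of RefSeq starts. Of the 1618 peaks, 224 overlapped such a window. GGGAA was present in 172 of 249 windows with an Ikzf1-only peak (69.1%, 63.1 to 74.5), against 72.7% (70.0 to 75.2) of 1149 windows with a shared peak, 63.8% of windows with a Fli1 peak alone, 63.6% of accessible windows with neither peak and 62.7% of all 32817 windows. The interval at Ikzf1-only windows reached down to the values of the windows without Ikzf1. In the bases of the peaks that lay wholly inside a window, GGGAA was present in 23 of 42 without Fli1 (54.8%, 39.95 to 68.8) and in 52.9% (47.2 to 58.5) of those with Fli1. The ETS motif GGAAGT was present in 30.5% (25.1 to 36.5) of windows with an Ikzf1-only peak, in 36.5% (33.7 to 39.3) of those with a shared peak, in 35.8% of those with a Fli1 peak alone and in 21.9% of accessible windows with neither peak. Its share at Ikzf1-only windows thus lay between those of windows with a Fli1 peak alone and of accessible windows with neither peak. Its interval reached the values of the windows with a shared peak or a Fli1 peak alone. A window with an Ikzf1-only peak could itself hold a Fli1 peak beside it, and such windows were not set apart. Of the 406 Ikzf1-only peaks annotated as promoter, 289 had a Fli1 peak within 1000 bases.

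GGGAAGT, the overlap of both motifs, was present in 29 of 249 windows with an Ikzf1-only peak (11.6%, 8.23 to 16.2), in 7.66% (6.26 to 9.34) of windows with a shared peak and in 5.72% of all windows. In the peaks that lay wholly inside a window it was found in 7 of 42 without Fli1 (16.7%, 8.32 to 30.6), against 13 of 293 with Fli1 (4.44%, 2.61 to 7.44). Letters that hold both cores were thus present at peaks without Fli1, in few peaks and with wide intervals. GGGCGG, the GC box, was present in 63.5% of Ikzf1-only windows, 67.8% of shared windows and 35.6% of all windows, and the median G and C content was 61.3%, 62.0% and 52.7% in these 3 sets. CCCNNGGG was present in 18.1% of Ikzf1-only windows and 16.5% of shared windows, and CANCTG in 37.8% and 41.6%, against 51.4% of all windows for CANCTG.

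Most of the 1618 peaks lay close to Fli1 even though they shared no base with it. The median distance to the nearest Fli1 peak was 527 bases, with quartiles of 126 and 4248 bases and a maximum of 3103896 bases. There were 920 peaks with a Fli1 peak within 1000 bases and 698 without. At the edge of the choosing rule, 213 peaks lay 1 to 50 bases from a Fli1 peak and had a median peak score, the authors' measure of peak strength, of 6.66, and 87.8% of them were accessible in 230-238 cells; 318 Ikzf1 peaks that shared only 1 to 50 bases with a Fli1 peak had a median score of 7.05 and were accessible in 87.7%.

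Peaks farther from Fli1 were less often accessible. The accessible share was 87.8% (82.7 to 91.5) at 1 to 50 bases, 86.5% (81.6 to 90.2) above 200 and up to 500 bases, 75.5% (70.6 to 79.9) at 1 to 5 kb, 59.8% (50.8 to 68.3) at 20 to 100 kb and 34.8% (18.8 to 55.1) in the 23 peaks beyond 100 kb. The promoter share had no single direction with distance: it was 30.5% (24.7 to 37) at 1 to 50 bases, 37.7% (31.9 to 43.9) above 200 and up to 500 bases, 14.1% (10.7 to 18.2) at 1 to 5 kb, 22.2% (15.6 to 30.6) at 20 to 100 kb and 30.4% (15.6 to 50.9) beyond 100 kb.

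**Figure D1:**
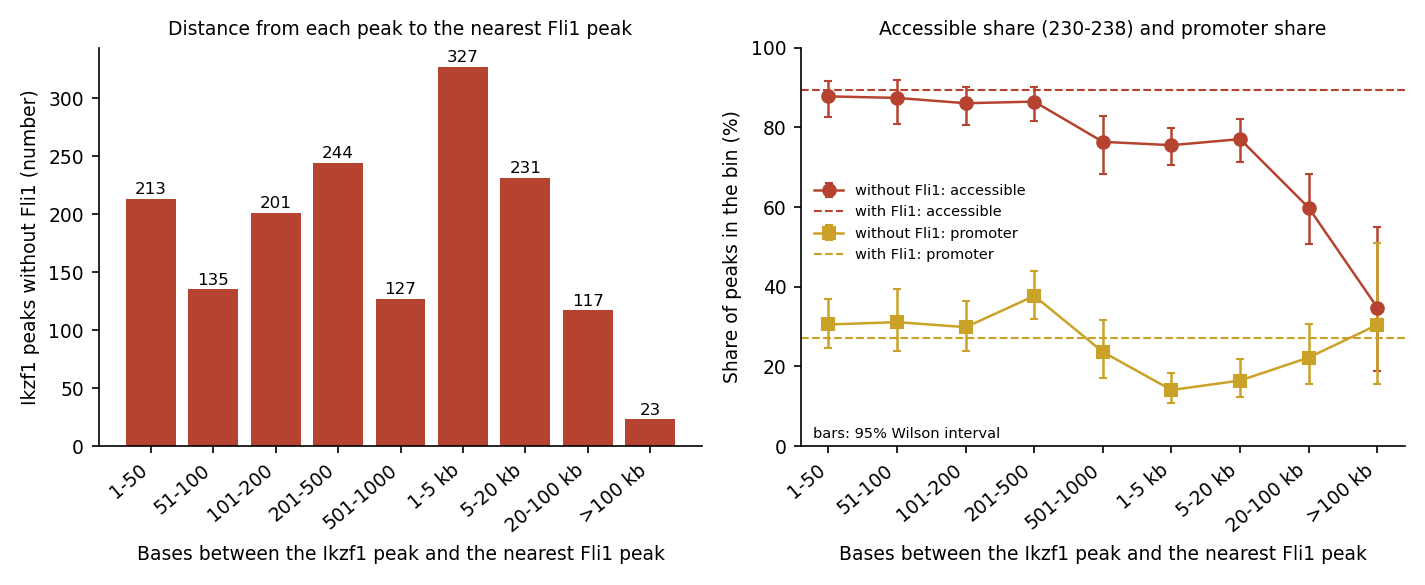
Left, number of Ikzf1 peaks without Fli1 by the bases to the nearest Fli1 peak. Right, share of each bin accessible in 230-238 cells and share annotated as promoter, with 95% Wilson intervals; dashed lines give Ikzf1 peaks with Fli1 (89.5% accessible, 27.2% promoter). The accessible share is 87.8% nearest to Fli1 and 34.8% beyond 100 kb.

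By annotation, introns held the largest class. There were 596 intronic peaks (36.8%, 34.5 to 39.2), against 31.7% (30.3 to 33.1) of shared peaks. Intergenic peaks numbered 482 (29.8%, 27.6 to 32.1), against 32.6% (31.2 to 34.0) of shared peaks, and promoter peaks 406 (25.1%, 23.04 to 27.3), against 27.2% (25.9 to 28.6). Exons held 42, 5′ UTRs 40, transcription termination sites 30, non-coding exons 12 and 3′ UTRs 9, and 1 peak had no annotation. The intron share was thus higher than at shared peaks beyond counting error, and the promoter intervals overlapped.

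The distance to the nearest start differed more than the classes did. The median was 3077 bases without Fli1, 7318 bases at shared peaks and 12256 bases at Fli1 peaks without Ikzf1. The lower quartile went the other way, with 407 bases without Fli1 and 222 at shared peaks. Within 1000 bases of a start lay 39.7% (37.4 to 42.1) without Fli1 and 37.0% (35.5 to 38.5) of shared peaks. Peaks over 10 kb from a start made up 37.6% (35.3 to 40.03) of those without Fli1 and 45.7% (44.2 to 47.2) of shared peaks. The median was 957 bases for those with a Fli1 peak within 1000 bases and 6336 bases for those without one. In that second set 16.8% were at promoters (14.2 to 19.7), 42.0% in introns and 34.0% intergenic, against 31.4%, 32.9% and 26.6% in the set with Fli1 nearby.

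**Figure D2:**
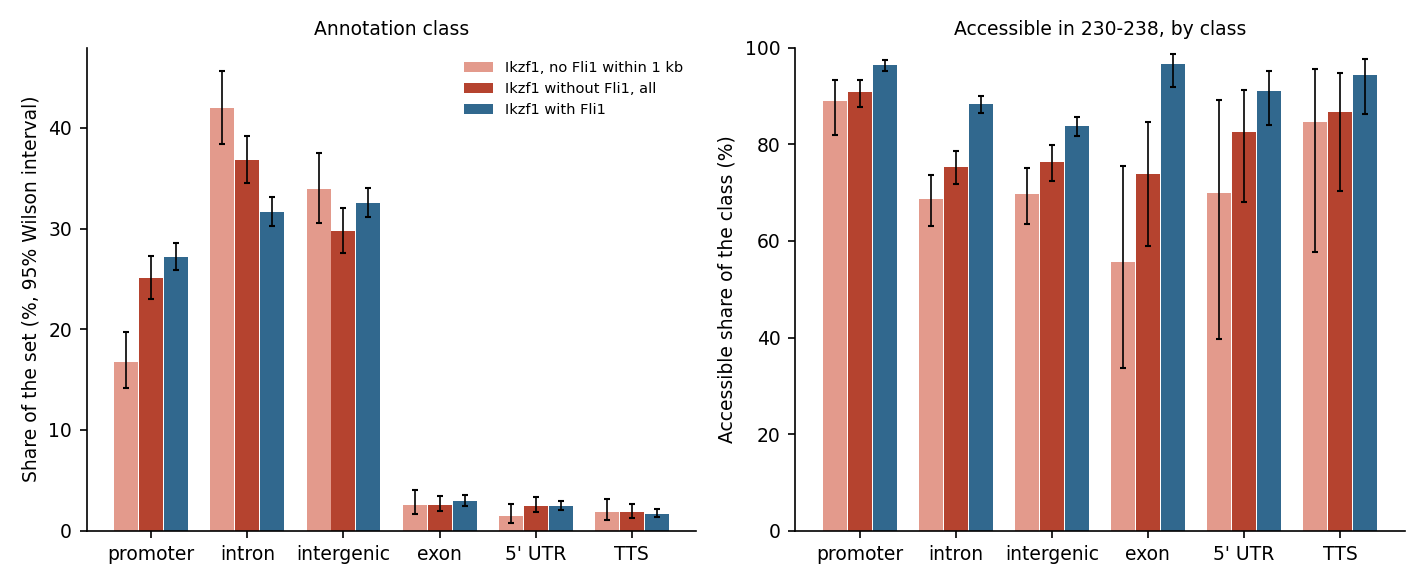
Left, share of each peak set per annotation class; right, share of each class that overlaps an accessible region of 230-238 cells, both in percent with 95% Wilson intervals. Bars give Ikzf1 peaks with no Fli1 peak within 1000 bases, all Ikzf1 peaks without Fli1, and Ikzf1 peaks with Fli1. Intronic peaks were accessible in 68.6%, 75.3% and 88.3% of these 3 sets.

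Peak scores without Fli1 were lower, in a narrow range. The median score was 6.66 without Fli1 and 7.05 with Fli1, a difference of about 1 score step of 0.392. The quartiles were 5.88 and 7.84 without Fli1, against 6.27 and 9.01 with Fli1. Scores over 10 were found in 143 peaks (8.84%) without Fli1 and in 714 peaks (17.3%) with Fli1. With all Ikzf1 peaks split by score into 4 bins of about equal size, the share without Fli1 was 36.3%, 30.5%, 25.7% and 18.7%, in the order of rising score.

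The highest-scoring peaks without Fli1 were less often accessible than those with Fli1, in small numbers and with overlapping intervals. Of the 20 highest, 7 were not accessible in 230-238 cells and 6 lay in exons, UTRs, termination sites or non-coding exons. Of the 20 highest with Fli1, 1 was not accessible and 2 lay in such places. The accessible share was 65% (43.3 to 81.9) against 95% (76.4 to 99.1); in the 100 highest it was 85% (76.7 to 90.7) without Fli1 and 93% (86.25 to 96.6) with Fli1. The comparison of the 20 highest was chosen after their values were seen.

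The strongest Ikzf1 peak without Fli1, with a score of 34.5, lay in exon 2 of Zfp36l2, which encodes an RNA-binding protein that promotes mRNA decay, 4367 bases from Fli1 and outside the accessible regions. Next came the Rdm1 promoter, with a score of 26.3, 508 bases from Fli1 and accessible. A peak in the exon of the non-coding gene 5730488B01Rik had a score of 22.7 and was not accessible, and the termination site of Lyl1, a haematopoietic basic helix-loop-helix factor, had 21.9 and was accessible. A peak in an intron near Cox4i2 had a score of 20.0. The Cdr1 promoter on chromosome X, with a score of 19.6, lay 781177 bases from the nearest Fli1 peak and was not accessible. Its window is the tandem-repeat one named above, in which the commonest 12 letters occurred 7 times in 280 bases. Only 24 of these bases lay under the peak, and in them no 12 letters occurred more than 1 time. Brd2, a bromodomain protein, had a peak of score 17.6 in a non-coding exon 10420 bases from Fli1, and Myc one of score 16.1 in exon 2, both outside the accessible regions.

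Among promoters, Phf12, a PHD finger protein of repressor complexes, had a score of 18.4 at 34997 bases from Fli1. Rnf44 had 18.0, Dusp2, a phosphatase of MAP kinases, 16.9, and Ccm2 15.7, at 166, 311 and 119 bases from Fli1 in that order. All 4 were accessible, and of them Dusp2 alone lay in an Ebf1-bound region. The promoters printed above thus include both Fli1-remote and Fli1-adjacent peaks.

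**Figure D3:**
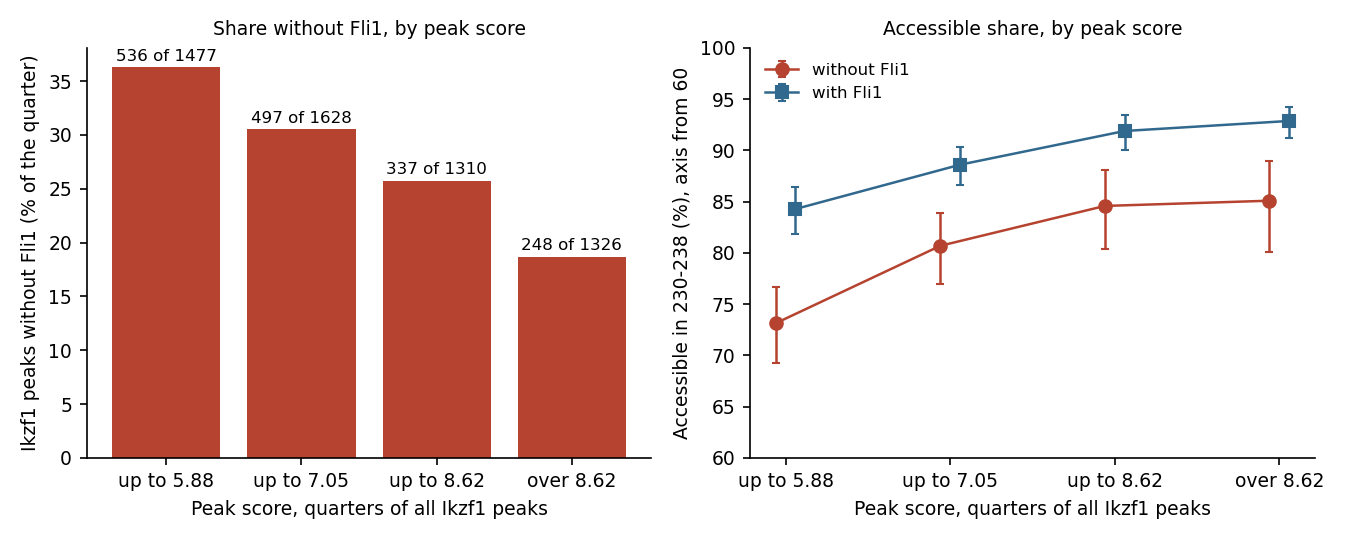
Left, Ikzf1 peaks without Fli1 as a share of each of the 4 bins of the Ikzf1 peak score, with their numbers. Right, share accessible in 230-238 cells per bin for peaks without and with Fli1, with 95% Wilson intervals on an axis that starts at 60%. The accessible share is 73.1% without and 84.3% with Fli1 in the lowest bin, and 85.1% without and 92.9% with Fli1 in the highest.

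In 230-238 cells, whose list held 65093 accessible regions, 1289 of the 1618 peaks (79.7%, 77.6 to 81.6) overlapped one, against 89.5% (88.5 to 90.4) of shared peaks and 72.5% of Fli1 peaks without Ikzf1. At promoters the share was 90.9% (87.7 to 93.3) without and 96.5% (95.3 to 97.4) with Fli1, and at intergenic peaks 76.3% (72.4 to 79.9) without and 83.8% (81.7 to 85.6) with Fli1. The share was lower without Fli1 in each of the 4 score bins. Peak calls and accessibility come from different cells, fetal liver cultures and an established line. The label of the line was met at promoters of 7 of 8 B-progenitor genes; 3 of 4 T-lineage and 1 of 4 myeloid promoters were accessible too, and none of 2 NK, 3 erythroid and 3 stromal ones.

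The 329 peaks outside the accessible list had a median score of 6.27, against 6.66 for the accessible ones. They lay a median of 5364 bases from the nearest accessible region, and 97 were within 1000 bases of one. A repeat element was the annotation label of 15.2% of them, against 7.37% of the accessible peaks. Of the 406 promoter peaks 369 were accessible, and the part of annotation class in this contrast was not tested. Over all Ikzf1 peaks without Fli1, repeats made up 8.96% (7.66 to 10.45), against 8.46% (7.65 to 9.35) of shared peaks; by class, LTR elements made up 2.91% without and 4.17% with Fli1, SINEs 3.03% and 2.01%, and LINEs 2.72% and 1.89%. CpG islands were the label of 5.69% without and 4.51% with Fli1. Each peak has a single detailed label in the deposited annotation. A peak labelled otherwise, such as by a promoter or exon, was not counted as a repeat or CpG island. These shares are thus not the full share of peaks in such sequence.

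The peaks had 1377 different nearest genes, of which 1235 had 1 peak each, and 65 peaks had no named gene. Of these genes, 498 (36.2%) also had a shared peak and 1229 (89.3%) a Fli1 peak somewhere. Of all 17799 genes, 18.2% had a shared peak and 73.2% a Fli1 peak. The other 148 genes (10.7%) with an Ikzf1-only peak had no Fli1 peak. Sept9, a septin of the cytoskeleton, had 5 Ikzf1-only peaks. Arhgap26, Foxo1, Kcnma1 and Parp16 had 4 each, and Arhgap26 and Parp16 had no shared peak.

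Of 20 B-lineage transcription factor genes, 10 had an Ikzf1-only peak and 9 a shared peak. The background over all 17799 genes near a peak or accessible region was 7.74% with an Ikzf1-only peak and 18.2% with a shared peak. The 10 were Bach2, Bcl11a, Foxo1, Ikzf1 itself, Irf4, Irf8, Myb, Runx1, Spi1 and Spib. Bcl11a, a zinc finger factor needed for B-cell development, had a peak of score 15.3 in a CpG island 950 bases into the gene, Foxo1, which drives recombinase genes, one of 12.5 at 127709 bases, and Myb, a progenitor factor, one of 10.2 in intron 1. Pax5 and Ebf1, which set B-cell identity, had no Ikzf1-only peak.

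Of 20 genes of pre-B-cell receptor signalling, 3 had an Ikzf1-only peak (Igll1, the kinase Syk and the phospholipase Plcg2) and 9 a shared peak. Of 17 genes described as Ikaros targets, 5 had an Ikzf1-only peak (Cdk6, Foxo1, Igll1, Ikzf1 and Myc) and 2 a shared peak. Of 15 cell cycle and survival genes, 6 had an Ikzf1-only peak and 6 a shared one, and of 17 cytokine receptor and surface protein genes 5 (Cxcr4, Il2ra, Il5ra, Kit and Ptprc) and 9. No V(D)J recombination gene of 12 had an Ikzf1-only peak, and 1 had a shared peak. Of 77 ribosomal protein genes, 10 had an Ikzf1-only peak and 14 a shared peak. The lists of this paragraph had Ikzf1-only shares of 15%, 29.4%, 40%, 29.4%, 0% and 13.0% in that order, against 7.74% over all genes. Their shares with a shared peak were 45%, 11.8%, 40%, 52.9%, 8.33% and 18.2%, against 18.2% over all genes.

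Genes of other lineages had Ikzf1-only peaks in shares on both sides of the 7.74% over all genes, from counts of 0 to 2 per list. An Ikzf1-only peak was nearest to 2 of 15 T-lineage genes (Lat and Zap70), 1 of 14 myeloid genes (Gfi1), 1 of 10 natural killer genes (Klrb1c), 1 of 11 Notch pathway genes (Rbpj), 2 of 9 stromal genes (Cxcl12 and Vim) and none of 10 erythroid genes. The stromal pair lay over 100 kb from the start and outside accessible regions. Lists and genes were named with these data in view, and the counts are descriptions.

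The deposited region tables do not cover the genome. Per the labels, they hold ATAC peaks at genes the authors had picked as enriched in Wt cells, and the Ebf1-bound tables hold the Ebf1-bound peaks among these, so they are not a full list of Ebf1 binding. Lower signal in the knockouts is therefore partly fixed by how the regions were chosen, and each value below is read against all regions of the same table.

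These 1172 Ebf1-bound regions held 82 of the peaks (5.07%, 4.102 to 6.25), against 5.94% (5.26 to 6.71) of shared peaks and 2.29% of Fli1 peaks without Ikzf1. Of the 82, 70 overlapped regions open in both Ebf1-KO and Wt cells and 14 regions open in Wt cells only, some of them both, and 48 overlapped an Ebf1-bound region that also had a Pax5 peak. Inside the 3642 regions of the mark tables, 80 of 170 peaks without Fli1 (47.1%, 39.7 to 54.5) lay in Ebf1-bound regions, against 245 of 400 shared peaks (61.3%, 56.4 to 65.9) and 40.6% of Fli1 peaks without Ikzf1. With Fli1 within 1000 bases the share was 55.1% (44.7 to 65.0), and without it 38.3% (28.45 to 49.2). Of all 3642 regions, 1192 (32.7%, 31.2 to 34.3) overlapped an Ebf1-bound region, a share within the last interval. Of the 172 regions with an Ikzf1-only peak, 81 (47.1%, 39.8 to 54.5) did. Of the Ebf1-bound regions with an Ikzf1-only peak, 57.1% (46.5 to 67.2) had a Pax5 peak, against 72.5% (66.5 to 77.8) of those with a shared peak and 54.3% of all 1172.

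Each table value is the number of tags in a region, scaled to 10000000 tags per library, and a region can be longer than the peak in it. Of 172 regions of the mark tables with an Ikzf1-only peak, 80 also held a Fli1 peak elsewhere, as did 48 of the 84 such Ebf1-bound regions. In the E2A-KO comparison 81 of 176 did. Each median ratio was therefore also taken over the regions without any Fli1 peak. The 2-fold counts and the values by class of region were not. Changes are log2 ratios of value plus 1, and a region counted as changed at 2-fold on that scale.

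In E2A-KO cells accessibility at these regions was set against Wt cells; the regions lie at Wt-enriched genes, which favours lower knockout values in every set compared. The median ATAC value over 176 regions with an Ikzf1-only peak was 13.5 in E2A-KO cells and 38.7 in Wt cells. The median log2 ratio was −1.15 (−1.43 to −0.97), against −1.50 (−1.69 to −1.33) at 392 regions with a shared peak and −0.76 over all 4829 regions. At least 2-fold lower were 100 of the 176 (56.8%, 49.4 to 63.9) and 72.7% (68.1 to 76.9) of regions with a shared peak, where the background over all regions was 37.6%. None of the 176 was at least 2-fold higher, where the background was 1.01%. Over those of the 176 without any Fli1 peak inside, the median was −1 (−1.38 to −0.84). At 1305 regions with a Fli1 peak alone the median was −1.06 (−1.12 to −0.996), within the Ikzf1-only interval. Of these, 52.4% (49.7 to 55.1) were at least 2-fold lower. At 2956 regions with neither peak the median was −0.55, and 25.3% were at least 2-fold lower. Scaling by TMM factors moved the median of all regions to 0.02 and that of the 176 to −0.31, with 54 of the 176 still at least 2-fold lower. The share of all regions past 2-fold was not counted under TMM scaling, so the 54 have no background. The Ikzf1-only median lay below that of all regions under both scalings, and the number of regions past 2-fold depended on the scaling. The regions are also longer than most, with a median of 936.5 bases against 994 bases for shared regions and 586 for all, and their Wt values are above the median of 12.0 over all regions; the part of either in the result was not tested. In bulk samples fewer cells of a type and less signal per cell cannot be told apart.

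By library totals, the size of the change went with the class of region. No values by class were taken under TMM scaling, which moved the median of all regions from −0.76 to 0.02. Among regions open in both Ebf1-KO and Wt cells, the median log2 ratio of E2A-KO over Wt was −0.75 (−0.89 to −0.66) at 35 promoter regions with an Ikzf1-only peak, of which 5 were at least 2-fold lower. It was −1.29 (−1.51 to −1.05) at 109 distal ones, of which 69 were. At 28 regions open in Wt cells only it was −2.09 (−2.61 to −1.72), and 26 were at least 2-fold lower. At least 2-fold lower were thus 14.3%, 63.3% and 92.9% of the Ikzf1-only regions of these classes, in that order. Over all regions of each class the shares were 36.5%, 41.4% and 71.6%, and the medians −0.84, −0.82 and −1.56. With a shared peak the median was −1.05 (−1.24 to −0.84) at open promoters and −1.50 (−1.70 to −1.32) at open distal regions. At regions open in Wt cells only with a shared peak it was −2.76 (−3.09 to −2.30).

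In Ebf1-KO cells, the median H3K27ac and RNA polymerase II ratios at Ikzf1-only regions were below 0, as the choice of Wt-enriched genes favours, and for both the median of all regions lay within the interval of the Ikzf1-only regions. The median H3K27ac CUT&RUN value was 14.1 in Ebf1-KO and 25.9 in Wt cells, with a median log2 ratio of −0.73 (−1.105 to −0.56), against −0.92 at shared regions and −0.70 over all. At least 2-fold lower H3K27ac was found in 74 of 172 (43.0%, 35.9 to 50.5), with a background of 37.4%. RNA polymerase II had a median of 10.8 in Ebf1-KO and 27.7 in Wt cells and a median log2 ratio of −1.03 (−1.37 to −0.65), against −1.14 at shared regions and −0.67 over all. At least 2-fold lower polymerase was found in 87 of 172 (50.6%, 43.2 to 58.0), with a background of 39.7%. Under TMM scaling these medians were −0.0032 for H3K27ac and −0.36 for polymerase, and those of all regions −0.02 and −0.04. Of the 172 regions, 44 were then at least 2-fold lower in H3K27ac and 64 in polymerase, without a background counted under that scaling. Over regions without any Fli1 peak, the medians by library totals were −0.74 (−1.24 to −0.57) for H3K27ac and −0.95 (−1.33 to −0.37) for polymerase.

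H3K4me2 had a higher median ratio at Ikzf1-only than at shared regions, with overlapping intervals. The median log2 ratio was 0.06 (−0.40 to 0.21) at Ikzf1-only regions, −0.41 (−0.675 to −0.24) at shared regions and −0.18 over all regions. At least 2-fold lower were 54 of 172 (31.4%, 24.9 to 38.7), with a background of 30.3%, and at least 2-fold higher were 19 (11.0%, 7.19 to 16.6), against 2.05% (1.04 to 3.98) of shared regions and a background of 7.58%. Without any Fli1 peak in the region the median was −0.22 (−0.69 to 0.14), so the sign of this median rested on regions that also held Fli1. For H3K4me3 the median was 0.06 (−0.17 to 0.34) at Ikzf1-only regions, −0.11 at shared regions and 0.02 over all, and 45 of 172 (26.2%) were at least 2-fold lower, with a background of 25.2%. H3K27me3, the Polycomb mark, had low median values of 0.71 in Ebf1-KO and 0.86 in Wt cells at Ikzf1-only regions. Its median log2 ratio there was −0.006 (−0.13 to 0.13). It was at least 2-fold higher in 36 of 172 (20.9%, 15.5 to 27.6) and in 19.9% of shared regions. The background of 16.9% lay within the Ikzf1-only interval. At least 2-fold lower were 12 of 172 (6.98%, 4.04 to 11.8), with a background of 4.67%.

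The chromatin remodeller subunit BRG1 and the acetyltransferase EP300 were measured at Ebf1-bound regions only. BRG1 had a median log2 ratio of −0.17 (−0.53 to 0.18) at 84 regions with an Ikzf1-only peak, −0.37 at 240 shared regions and −0.29 over all 1172. At least 2-fold lower BRG1 was found in 26 of 84 (31.0%), with a background of 32.4%. EP300 had a median log2 ratio of −0.55 (−1.07 to −0.16) at Ikzf1-only regions, −0.79 at shared regions and −0.56 over all, and 34 of 84 (40.5%) were at least 2-fold lower, with a background of 36.9%, while 12 (14.3%) were at least 2-fold higher, with a background of 11%. TMM scaling put the EP300 median at −0.017 (−0.54 to 0.41) at Ikzf1-only regions and −0.02 over all. Of the 84 regions, 25 were then at least 2-fold lower and 24 at least 2-fold higher, without a background counted under that scaling. By library totals, for both factors the interval of the share of lower regions held the background. Without any Fli1 peak in the region, the median by library totals was −0.38 (−1.23 to 0.20) for BRG1 and −0.57 (−1.67 to 0.51) for EP300.

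**Figure D4:**
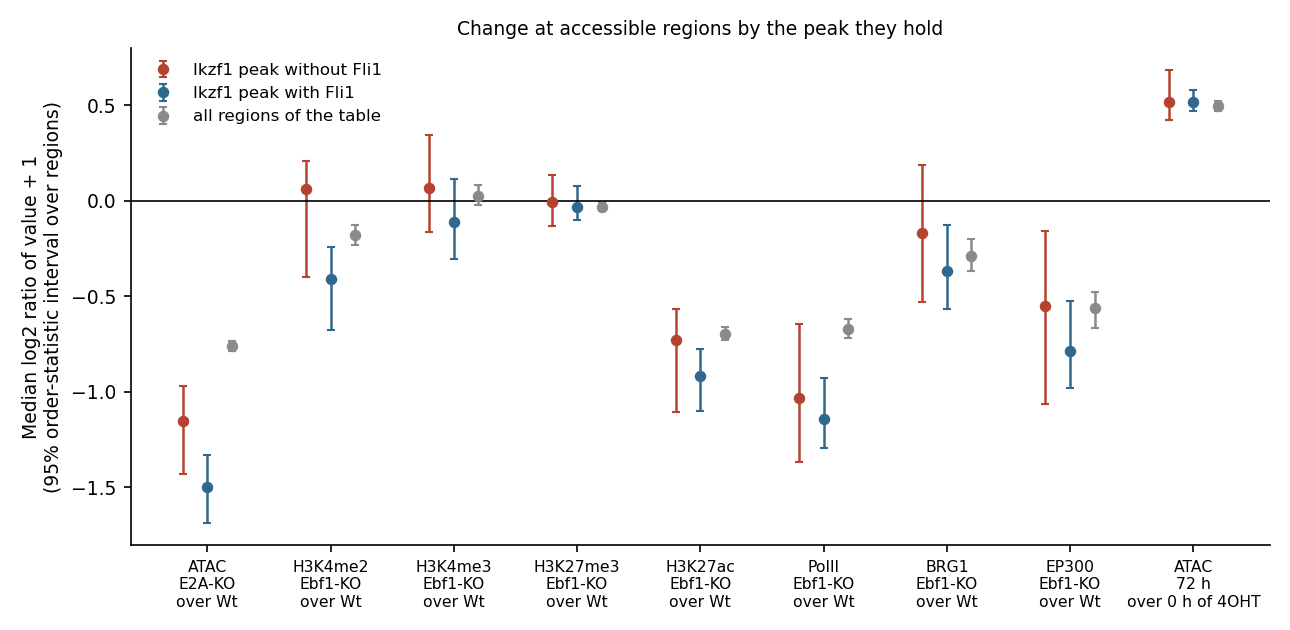
Median log2 ratio of value plus 1 for each comparison at regions with an Ikzf1 peak without Fli1, at regions with an Ikzf1 peak with Fli1 and at all regions of the table, with 95% order-statistic intervals over regions. E2A-KO over Wt ATAC has the lowest medians (−1.15, −1.50 and −0.76), and the 3 medians at 72 h over 0 h of 4OHT lie between 0.50 and 0.52.

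When Ebf1ER was switched on in Ebf1-KO cells, ATAC values scaled to library totals were higher at Ikzf1-only regions, as over all Ebf1-bound regions. Their median ATAC value was 10.2 at 0 h, 13.5 at 6 h, 21.2 at 24 h and 19.6 at 72 h of 4OHT, and that of shared regions 13.3, 17.9, 22.7 and 23.3. The median log2 ratio of 72 h over 0 h was 0.52 (0.42 to 0.68), against 0.51 at shared regions and 0.50 over all, and 15 of 84 (17.9%, 11.1 to 27.4) were at least 2-fold higher, with a background of 18.2%. TMM scaling put the median at −0.01 for Ikzf1-only regions and −0.02 over all regions, so the direction of the common shift depends on the scaling. Of the 84 regions, 4 were then at least 2-fold higher, without a background counted under TMM scaling. In either scaling Ikzf1-only regions did not stand apart from all regions beyond their interval. By library totals, those without any Fli1 peak had a median log2 ratio over 0 h of 0.08 (−0.17 to 0.39) at 6 h and 0.55 (0.21 to 0.80) at 72 h.

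The Igll1 promoter region moved in nearly every measurement, and it held no Fli1 peak. Its ATAC value was 7.11 (5.44 to 9.13) in E2A-KO cells and 97.4 (92.5 to 102.5) in Wt cells. In Ebf1-KO cells polymerase was 3.76 against 141 in Wt cells, H3K4me3 4.49 against 63.7, H3K27ac 14.1 against 58.2, EP300 3.45 against 82.0 and BRG1 5.45 against 18.5. With Ebf1ER it had an ATAC value of 4.65 at 0 h, 12.4 at 6 h, 19.1 at 24 h and 36.6 (30.5 to 43.5) at 72 h, 7.87-fold the value at 0 h (4.98 to 13.0). Its peak scored 11.0, lay 5624 bases from Fli1 and was in an Ebf1- and Pax5-bound region; its promoter bases, with an Ebf1 motif and an E-box, are printed above.

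Further regions with low values in the knockouts lay over 1000 bases from a start. A region without a gene name in an intron on chromosome 14, chr14:40999872-41000602, had an ATAC value of 4.31 in E2A-KO and 113 in Wt cells, and a polymerase value of 0.68 in Ebf1-KO and 55.8 in Wt cells. A region at −111538 bases from the start of Ufm1, which encodes a ubiquitin-like modifier, had ATAC values of 3.73 in E2A-KO and 86.2 in Wt cells. A region 127966 bases downstream of the Foxo1 start, which also holds a Fli1 peak, had a polymerase value of 1.03 (0.213 to 3.00) in Ebf1-KO and 80.4 in Wt cells. Il5ra, the interleukin-5 receptor alpha chain, had an H3K4me2 value of 1.2 in Ebf1-KO and 48.8 in Wt cells, at −1390 bases from its start. Of these 4, the Ufm1 and Foxo1 regions held a Fli1 peak and the other two held none.

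Other regions had higher values in Ebf1-KO cells. At Bcl11a, 543 bases from its start, H3K4me2 was 64.7 in Ebf1-KO and 18.95 in Wt cells, 3.42-fold higher (2.65 to 4.45). Bcat1, an enzyme of branched-chain amino acid breakdown, had an H3K4me2 value of 128 in Ebf1-KO and 34.0 in Wt cells. Zfp248 had an H3K4me3 value of 161 in Ebf1-KO and 18.0 in Wt cells, and Ust an H3K27me3 value of 48.4 in Ebf1-KO and 3.15 in Wt cells. Near Gm2848, EP300 was 71.0 in Ebf1-KO and 12.9 in Wt cells. Bcl11a, Bcat1 and Gm2848 held no Fli1 peak in the region, and Zfp248 and Ust held 1 each.

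**Figure D5:**
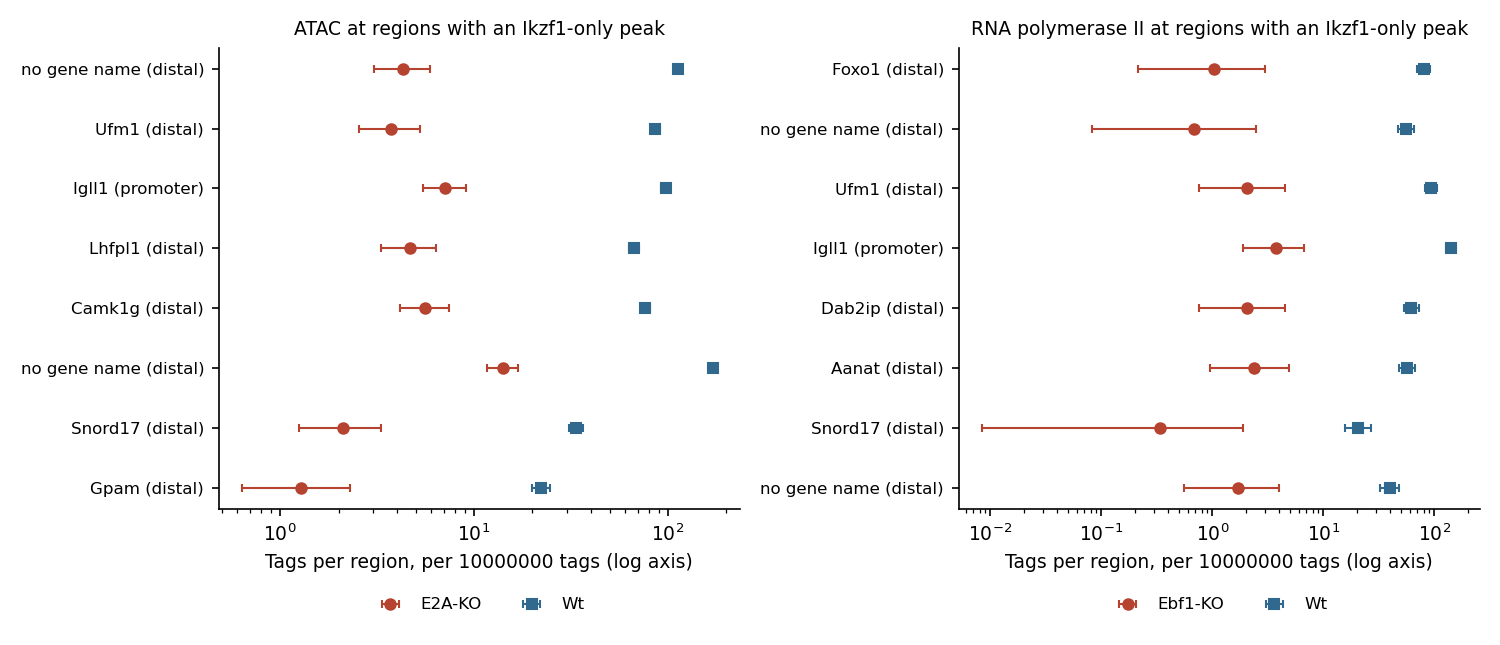
Tags per region, scaled to 10000000 tags and drawn on a log axis with exact Poisson 95% intervals, at the 8 regions with an Ikzf1-only peak of lowest ratio in each comparison: ATAC in E2A-KO and Wt cells (left) and RNA polymerase II in Ebf1-KO and Wt cells (right). Every E2A-KO or Ebf1-KO value shown lies below its Wt value, as the choice of regions fixes; at Igll1 ATAC is 7.11 in E2A-KO and 97.4 in Wt cells.

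PLAC-seq joins chromatin contacts with a pull-down of H3K4me3, so its anchors favour active promoters. Of the 1618 peaks, 1237 (76.5%, 74.3 to 78.5) overlapped a 5 kb anchor bin of 230-238 cells, against 75.2% (73.9 to 76.5) of shared peaks and 55.8% of Fli1 peaks without Ikzf1. Anchored peaks without Fli1 had a median of 5 contacts and shared ones 4, where the median over all 56971 bins was 1. At promoters 91.1% without and 92.3% with Fli1 were anchored, in introns 73.0% and 70.9%, and between genes 66.8% (62.5 to 70.9) and 61.9% (59.2 to 64.4). Of peaks outside the accessible list 43.2% were anchored, against 84.95% of accessible ones.

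Partners of the anchored peaks were alike with and without Fli1. They were assigned by 5 kb bin, and 920 of the 1618 peaks had a Fli1 peak within 1000 bases. A peak without Fli1 could thus share its bin and partners with Fli1 peaks, and bins of this size cannot separate the sets well. A partner bin held a promoter for 70.0% without and 70.1% with Fli1, an Ikzf1-only peak for 21.3% and 20.1%, a shared peak for 41.4% and 39.7%, and an Ebf1-bound region for 16.5% (14.5 to 18.7) and 14.6% (13.4 to 15.9). Of promoter peaks with no Fli1 within 1000 bases, 29 of 106 (27.4%, 19.8 to 36.5) met an Ebf1-bound region, against 14.8% (11.0 to 19.6) of promoter peaks with Fli1 nearby and 15.8% (13.7 to 18.2) of promoter peaks with Fli1. The interval of the Fli1-remote promoters did not overlap those of the other sets; it was picked from 5 partner classes in 3 annotation classes after the values were seen, and no test was made.

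Single contacts showed which gene a distal peak met. The intergenic Foxo1 peak at 127709 bases contacted the Foxo1 promoter 130 kb away with 37 reads (the authors' q = 2.6e-13), and another Foxo1 peak met it over 175 kb with 39 reads. The intronic Plcg2 peak contacted the Plcg2 promoter 30 kb away with 85 reads. The peak of score 20.0 named for Cox4i2, by its nearest start, contacted the promoter of Bcl2l1, a survival gene, 40 kb away with 84 reads. The Myc exon peak lay in a bin with 70 contacts at a median distance of 797.5 kb, the most of any bin, and no partner of it held a promoter. Klf6 had 57 contacts, Ptger4 47 and Fbxl14 35. The Klf6 peak was annotated as promoter, 595 bases from the start. The Myc, Ptger4 and Fbxl14 peaks lay 2586, 1655 and 888 bases from theirs. These bins are thus near gene starts and are no examples of distal peaks. Contact and read counts belong to bins of 5 kb and not to the peak alone.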

How the data were processed

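ChIP-seq, CUT&RUN, ATAC-seq and PLAC-seq were deposited for 54 samples in 40 groups. Per the submitters' processing notes, the tools included Trim Galore 0.6.4, Bowtie2 2.3.5, SAMtools 1.9, HOMER 4.10, deepTools 3.3.1, HiC-Pro 2.11.1, MACS2, Picard, FastQC and edgeR; their order and settings are not given in the sources used here. The deposited peak lists give a score for each peak, the authors' own value. The deposited region tables give a signal per region, which the authors scaled to 10000000 tags per library. Per the labels, the regions are ATAC peaks at genes enriched in Wt cells, or the Ebf1-bound ones among them. The deposited contact table gives a read count and a q-value for pairs of 5 kb bins, all at q of 0.05 or less.

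The labels do not say that samples of a group came from separate animals. Each group in the region tables is 1 column, and the Wt ATAC column is headed as a pool of 6 libraries where 3 Wt samples are labelled. The planned limma tests could not be made, so no p-value was computed here. Of the value columns, 2 were not used because no labelled sample matches them.

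Peaks counted as shared if at least 1 base overlapped. Shares have 95% Wilson intervals, medians order-statistic intervals, values exact Poisson intervals and folds exact conditional intervals. Ratios are of log2(value + 1). Tags were recovered from the scaled signal and TMM factors computed with edgeR 4.0.16 in R 4.3.3 as an alternative. Other steps used SciPy 1.17.1, pandas 2.3.3, numpy 2.4.6 and matplotlib 3.10.9 under Python 3.11.15, and the overlap and ratio calculations were tested on simulated data. Promoter sequences are from RefSeq, GRCm38.p6; windows around peak centres were not used here. Genes were named by rule: the highest scores per class and per list, the genes with most peaks, the Ebf1-bound peaks, the largest ratios among regions with a value of at least 20, and the most contacts. The members and lists were chosen with earlier results of these data known.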

Additional observations from a re-analysis of the deposited data

How the results depend on the processing

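Asking that at least 50% of the Ikzf1 peak be covered gave 2307 peaks without Fli1, and counting a Fli1 peak within 1000 bases as shared left 698. In those, the promoter share was 16.8%, the accessible share 72.1% and the share in anchors 71.1%. The promoter share was 39.7% when set by distance of at most 1000 bases. The accessible share was 74.3% with at least 50% of the peak covered and 83.6% in peaks scoring above the median. The share in anchors was 68.2% at q of at most 0.01 and 81.3% in peaks scoring above the median. TMM scaling gave Ikzf1-only medians of −0.31 for E2A-KO ATAC, 0.21 for H3K4me2, −0.0032 for H3K27ac, −0.36 for polymerase and −0.017 for EP300. The time course changed sign: −0.039 at 6 h, −0.055 at 24 h and −0.015 at 72 h, with −0.0075, −0.00099 and −0.022 over all regions; for E2A-KO ATAC the median over all regions became 0.0173. At least 2-fold higher at 72 h were then 4 regions, against 15, and at least 2-fold lower were 54 for E2A-KO ATAC and 44 for H3K27ac, against 100 and 74; for EP300, 24 were at least 2-fold higher, against 12. Shares over all regions past 2-fold were not counted under TMM scaling, so these counts have no background. The cause of the changes under TMM scaling was not tested. Of the main results' alternatives 30 stayed within the interval of the main value, or within 1.5 times a count, 14 moved and 1 reversed. Among the 30, medians near 0 still changed sign: H3K4me2 was −0.22 without any Fli1 in the region, and under TMM scaling H3K4me3 was −0.01 and BRG1 0.12. Shares in the set without nearby Fli1, regions without any Fli1, and TMM scaling of the all-region medians, 2-fold counts and 6 h and 24 h ratios were chosen after seeing the data. No paired analysis was possible because each group is 1 column. Leaving out replicates and motif windows of other sizes around peak centres were not run. Single libraries and unknown peak-library depth limit all comparisons.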
